A study of Mus musculus with 7 samples.

Results

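The 10 genes described here encode enzymes that burn or store glucose, together with a glucose transporter. They were chosen by name from the deposited gene table, in which all 10 were present among 20343 genes, and all 10 passed the filter on low counts that left 7667 tested genes. Messenger RNA of the apical myocardium was sequenced from 7 hearts of NSG-DR1 mice, an immunodeficient strain labelled NSG-DRB1*0101 for its human HLA-DR transgene. The 4 control hearts came from untreated mice. The 3 transferred hearts came from mice given human CD4+ T cells, and the tissue was taken 6 weeks after transfer. The labels give no age and name no carrier or other cell type given to the controls, so transfer as such and CD4+ T cells in particular cannot be told apart. Nothing in the labels says whether recipients shared a T cell donor.

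Glycolysis splits glucose into pyruvate in the cytosol and yields ATP without oxygen. The adult heart takes most of its energy from fatty acids and lactate, and its use of glucose rises with insulin, workload and low oxygen. Glucose enters the cell through GLUT transporters and is trapped by hexokinase. Part of it is stored as glycogen, and pyruvate is either oxidised in mitochondria or exchanged with lactate by lactate dehydrogenase, an enzyme assembled from A and B subunits that the genes Ldha and Ldhb encode. The B subunit is the main form in heart muscle, and the A subunit in skeletal muscle and many activated cells.

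No gene of the 10 passed the threshold of an adjusted p-value of 0.05 between the groups (edgeR quasi-likelihood test, adjusted p from 0.411 to 0.983), against 0.235% of all tested genes, which is 18 of 7667. The called share was 0.13% for genes higher after transfer and 0.104% for genes lower. An unadjusted p-value under 0.05 was reached by 0 of the 10 genes and by 12.4% of all tested genes, and of the 10 by Ldha, Slc2a1 or both in 7 of the 19 alternatives. In 0 of the 10 did the groups separate without overlap, against 11.2% of all tested genes, 5.99% with higher and 5.22% with lower transferred hearts. The balance within lactate dehydrogenase did separate. Per kilobase of combined exons, the Ldha share of the Ldha and Ldhb transcripts was 10.2% ± 0.427 (SD, n = 4) without transfer and 12.1% ± 1.07 (SD, n = 3) after it. Its size depends on the lengths used, and with those of the principal GENCODE transcripts it was 26.5% without transfer and 30.5% after it. Among tested genes with counts in every heart, count ratios separated the groups for 12% of all pairs, 8.36% of genes set against Ldhb and 18.5% of genes set against Ldha. The other pattern was between animals, since the genes were high and low together in particular hearts.

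The promoters of the lactate dehydrogenase genes and of Slc2a1 are shown because these genes carry the balance and the highest fitted values below. Each is the 250 bases before a RefSeq start site in build GRCm38.p6, 5′ to 3′ on the gene's own strand. Capitals mark ACGTG and GCGTG on either strand, the cores bound by the low-oxygen factor HIF, and overlapping matches share capitals. Ldha has 2 such windows, and the one shown is chr7:46845554-46845803 on the plus strand, the Ldhb window chr6:142507958-142508207 on the minus strand and the Slc2a1 window chr4:119108495-119108744 on the plus strand.
Ldha: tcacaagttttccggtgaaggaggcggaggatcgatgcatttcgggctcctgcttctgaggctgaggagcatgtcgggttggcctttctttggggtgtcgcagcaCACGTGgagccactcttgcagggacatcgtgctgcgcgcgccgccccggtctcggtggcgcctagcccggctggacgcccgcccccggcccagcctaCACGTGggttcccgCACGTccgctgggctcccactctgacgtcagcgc
Ldhb: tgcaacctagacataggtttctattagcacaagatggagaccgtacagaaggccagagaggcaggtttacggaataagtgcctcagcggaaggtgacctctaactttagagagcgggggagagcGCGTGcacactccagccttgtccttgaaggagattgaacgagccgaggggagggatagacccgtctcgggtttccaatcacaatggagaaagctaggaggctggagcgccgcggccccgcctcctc
Slc2a1: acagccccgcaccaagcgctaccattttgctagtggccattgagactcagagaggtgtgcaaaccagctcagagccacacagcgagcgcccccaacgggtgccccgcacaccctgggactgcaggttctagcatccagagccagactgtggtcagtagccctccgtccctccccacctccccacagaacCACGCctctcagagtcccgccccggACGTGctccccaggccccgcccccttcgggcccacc
The Ldha window shown held ACGTG with first bases 145, 144, 48, 47 and 34 bases before the start site, the first 2 and the next 2 of these being the same palindrome read on both strands. The other Ldha window, chr7:46846832-46847081, held no ACGTG and GCGTG once, 59 bases before its start site. The Ldhb window held no ACGTG and GCGTG once, 126 bases before the start site. The Slc2a1 window held each core once, GCGTG at 61 and ACGTG at 36 bases before the start site. Over the 15 RefSeq windows of the 10 genes, ACGTG was found in 5, which belong to Slc2a1, Hk2, Aldoa and Ldha, against 16.6% of 32851 windows of the same length. GCGTG was found in 7 of the 15, against 28.2%. Windows of start sites close together overlap, so that 2 Aldoa windows count the same ACGTG and 2 Eno1 windows the same GCGTG matches. These are matches of letters in one window per start site and not measured binding sites.

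Column totals ranged from 16402194 to 25190580 counts over the analysed part of the table, which covers chromosomes 1 to 7 and the start of chromosome 8. Each of the 10 genes had between 909 and 166603 counts in a heart, so counting error was small beside the spread between animals. Together they took between 2.33% and 2.89% of a heart's counts. The summed level of 8 cardiomyocyte markers, Tnnt2, Tnni3 and Ttn among them, was between 105768 and 134015 counts-per-million (CPM) in every heart, and that of 5 skeletal muscle markers was at most 51.2 CPM. Levels in CPM are scaled by TMM (trimmed mean of M values). In bulk tissue, fewer cells of a type and less RNA per cell cannot be told apart.

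Glucose entry was represented by Slc2a1 (gene ID 20525, chromosome 4, 119108745 to 119137330, plus strand), which encodes GLUT1, the insulin-independent transporter. It was at 48.1, 49.3, 44.7 and 57.4 CPM in control hearts 1 to 4 and at 53.6, 61.5 and 58.8 CPM in transferred hearts 1 to 3. The 3 transferred hearts lay above control hearts 1 to 3, and control heart 4 lay above transferred heart 1, so the groups overlapped. The log2 fold change of transferred over control hearts was 0.22 with a standard error of 0.10 and a 95% interval from -0.00 to 0.44 (edgeR adjusted p = 0.411). GLUT4, the main insulin-responsive transporter of heart muscle, is encoded by a gene on a chromosome not analysed here.

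Hexokinase 2, the insulin-responsive enzyme that phosphorylates glucose, is encoded by Hk2 (gene ID 15277, chromosome 6, 82725025 to 82774454, minus strand). Hk2 was at 663, 640, 622 and 703 CPM in the control hearts and at 695, 545 and 659 CPM in the transferred hearts. Transferred heart 2 was the lowest of all 7 hearts, and the other transferred hearts lay inside the control range. On the log2 scale the groups differed by -0.05, with a 95% interval from -0.27 to 0.16.

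Further steps turn the phosphorylated sugar into triose phosphates, and genes of 3 of their enzymes follow. Phosphofructokinase, another enzyme of these steps, is encoded on chromosomes not analysed here. Gpi1 (gene ID 14751, chromosome 7, 34201327 to 34230336, minus strand), which encodes glucose-6-phosphate isomerase, was at 1299, 1485, 1218 and 1685 CPM in control hearts and at 1501, 1325 and 1324 CPM in transferred hearts. Aldoa (gene ID 11674, chromosome 7, 126795234 to 126800994, minus strand), which encodes the muscle aldolase that cuts the sugar, was at 6048, 7068, 5349 and 7576 CPM against 6867, 6454 and 5725 CPM. For both genes every transferred heart lay inside the control range. Tpi1 (gene ID 21991, chromosome 6, 124810586 to 124814158, minus strand) encodes triosephosphate isomerase, which interconverts the triose phosphates. It was at 2627, 2805, 2361 and 2914 CPM in control hearts and at 3172, 2623 and 2294 CPM in transferred hearts, which thus included both the highest and the lowest value. The log2 fold changes were -0.04 for Gpi1, -0.04 for Aldoa and 0.01 for Tpi1, and the 95% intervals together spanned -0.33 to 0.29.

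Gapdh (gene ID 14433, chromosome 6, 125161852 to 125166467, minus strand) encodes the dehydrogenase of the first energy-yielding step and is widely used as a reference gene for expression assays. It was at 7045, 7170, 6306 and 8919 CPM in control hearts and at 8153, 6551 and 6088 CPM in transferred hearts. The highest heart exceeded the lowest 1.47-fold, and the lowest and highest lay in different groups. The log2 fold change was -0.09 with a standard error of 0.14 and a 95% interval from -0.40 to 0.23. Eno1 (gene ID 13806, chromosome 4, 150236708 to 150248879, plus strand) encodes alpha-enolase, the form found in most tissues, while the muscle form Eno3 is on a chromosome not analysed here. Eno1 was at 261, 347, 281 and 389 CPM in control hearts and at 375, 322 and 317 CPM in transferred hearts, all 3 inside the control range. Its log2 fold change was 0.08, with a 95% interval from -0.23 to 0.39.

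Gys1 (gene ID 14936, chromosome 7, 45434839 to 45456617, plus strand) encodes muscle glycogen synthase, which builds the glucose store. It was at 358, 458, 317 and 487 CPM in control hearts and at 420, 375 and 401 CPM in transferred hearts. The transferred hearts lay close together in the middle of the control range. Gys1 had the widest range of the 10 genes, 1.54-fold from lowest to highest heart, and both ends were control hearts. Its log2 fold change was -0.02, with a 95% interval from -0.34 to 0.30.

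**Figure D1:**
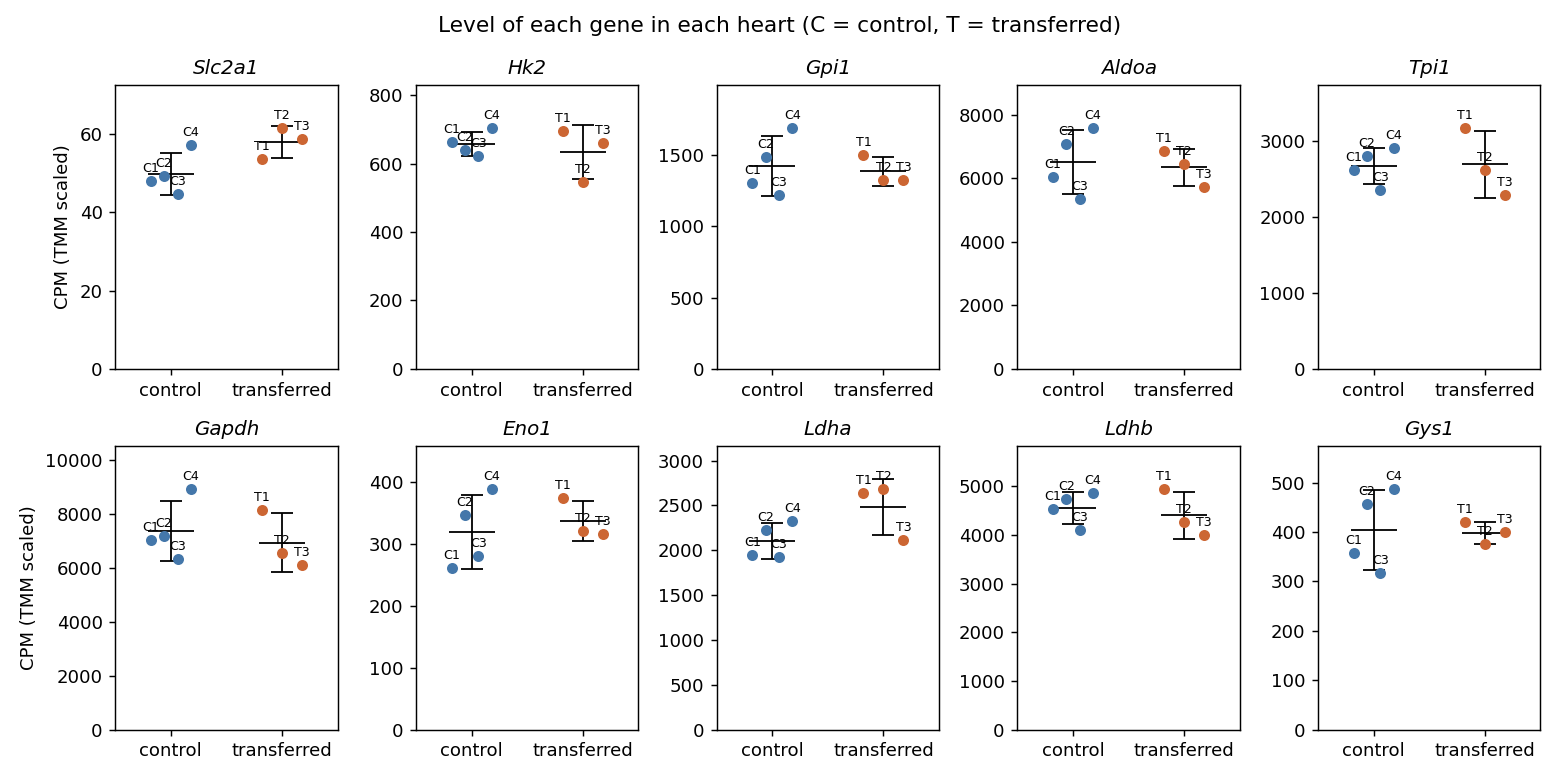
Level of each of the 10 genes in each heart, in TMM-scaled CPM on a vertical axis from 0, with control hearts (C1 to C4) and transferred hearts (T1 to T3) as points and the group mean and SD as bars. The groups overlap in all 10 genes, and C4 is the highest control heart in each panel.

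Ldha (gene ID 16828, chromosome 7, 46842274 to 46855627, plus strand) encodes the A subunit of lactate dehydrogenase, which favours making lactate from pyruvate. It was at 1952, 2227, 1925 and 2330 CPM in control hearts and at 2638, 2683 and 2118 CPM in transferred hearts. Transferred hearts 1 and 2 were above all control hearts, and transferred heart 3 was inside the control range. The log2 fold change was 0.23 with a standard error of 0.11 and a 95% interval from -0.02 to 0.49 (edgeR adjusted p = 0.445). This was the highest fitted value of the 10 genes and did not pass the threshold.

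Ldhb (gene ID 16832, chromosome 6, 142490249 to 142507957, minus strand) encodes the B subunit, which favours using lactate. It was at 4526, 4725, 4093 and 4861 CPM in control hearts and at 4940, 4259 and 4004 CPM in transferred hearts, with the highest and the lowest heart both among the transferred. It was the steadiest of the 10 genes, with a 1.23-fold range over the hearts. Its log2 fold change was -0.05, with a 95% interval from -0.28 to 0.18.

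Because both genes are counted in the same library, their balance does not depend on how libraries are scaled. Per kilobase of combined exons, Ldha made up 9.53%, 10.3%, 10.3% and 10.5% of the Ldha and Ldhb transcripts in control hearts 1 to 4, and 11.5%, 13.3% and 11.4% in transferred hearts 1 to 3. Every transferred heart was above every control heart. The difference of 1.95 percentage points gave an exact two-sided permutation p of 0.0286, the smallest that the 35 possible groupings of 7 hearts allow. Without transferred heart 2, the highest, the difference was 1.33 percentage points, still without overlap, but 15 groupings allow no p under 0.0667.

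The size of the share depends on the length assigned to Ldha, whose combined exons span 5342 bases against 1677 in its principal GENCODE transcripts. With principal transcript lengths the share was 26.5% ± 0.916 (SD, n = 4) against 30.5% ± 2.10 (SD, n = 3), and with no correction for length 31.6% ± 1.02 (SD, n = 4) against 36.02% ± 2.28 (SD, n = 3) of the counts. All of these follow from the same ratio of counts in each heart, so the separation and its p are carried over by construction and are not further support. Reads of the pseudogene Ldha-ps2, at most 1.43% of the Ldha counts, gave a difference of 1.95 percentage points when they and those of Ldha-ps were added to Ldha.

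The summed leukocyte markers also separated the groups. All 10 tested macrophage and leukocyte markers had a positive log2 fold change and an edgeR unadjusted p-value under 0.05, a level reached by 12.4% of all tested genes. In 9 of the 10 the groups did not overlap, against 11.2% of all tested genes. Past the threshold were 3 (edgeR adjusted p = 0.0384 for each), against 0.13% of all tested genes called higher. These were C1qb, Coro1a and Mrc1, which encode a complement subunit, an actin-binding protein of leukocytes and the macrophage mannose receptor. These 3 calls and that of Aqp1 below were lost with limma-voom (adjusted p from 0.0698 to 0.0777), with the identifier form as covariate (0.0682 to 0.0727), without both letter-prefix hearts (0.0591 to 0.135) and whenever a control heart or transferred heart 2 was left out (0.0686 to 0.157). Those of C1qb and Mrc1 were also lost without transferred heart 1 (adjusted p = 0.0606). The summed level of the 10 was 432 to 636 CPM in control hearts and 780 to 1135 CPM in transferred hearts, highest in transferred heart 2, where the Ldha share was also highest. None of the 10 was at 0. The summed level of 5 neutrophil markers was 8.87 to 12 CPM in control hearts and 12.2, 259 and 36.7 CPM in transferred hearts 1 to 3. Transferred heart 1 had a neutrophil sum close to the controls and an Ldha share above all of them. Of 4 endothelial markers, none of them at 0, 1 was called. Aqp1, a water channel, fell by 1.01 on the log2 scale (edgeR adjusted p = 0.0384), Tie1 was lower in transferred hearts without overlap (edgeR adjusted p = 0.185), and Kdr and Tek overlapped. The summed level of the 4 was 1676 to 2226 CPM in control hearts and 1277 to 1588 CPM in transferred hearts, and that of the 3 without Aqp1, at 949 to 1266 and 922 to 1098 CPM, overlapped. The part of these cell types in the Ldha share was not tested.

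**Figure D2:**
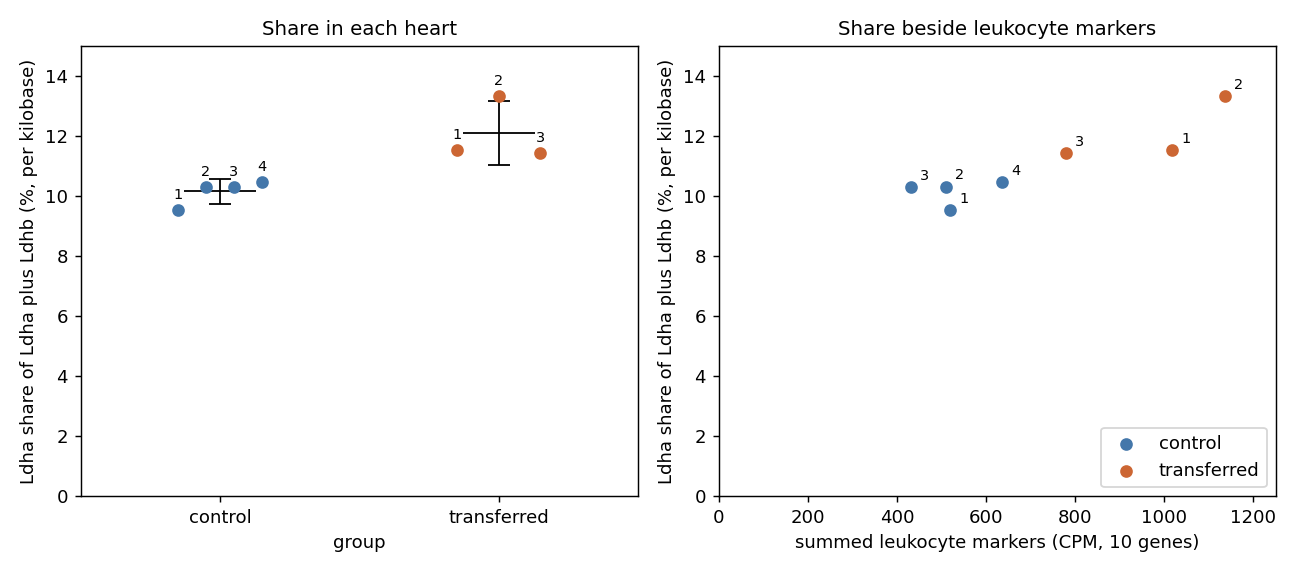
Left, the Ldha share of Ldha plus Ldhb (percent, per kilobase of exon) in each heart, with points numbered by heart and bars for the group mean and SD. Right, the same share (vertical axis) against the summed level of 10 leukocyte markers in CPM (horizontal axis); the transferred hearts lie from 11.4% to 13.3%, above the control hearts at 9.53% to 10.5%, and also have the higher marker sums.

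Identifiers in the labels begin with letters for 1 heart of each group, numbered 1 in both, and consist of numbers for the remaining 5. The labels do not say what the prefix stands for. Among the hearts with numbers alone the share differed by 2.02 percentage points (exact permutation p = 0.1, the smallest that 3 against 2 hearts allow), and between the prefixed pair by 2.01. Of the 45 pairs that the 10 genes can form, the ratio of counts separated the groups in 6, or 13.3%, against 12% of all pairs of tested genes with counts in every heart, which is close to the same share. Over those genes the ratio to Ldhb separated the groups for 8.36% and the ratio to Ldha for 18.5%. Among the 10 genes, Ldha was in 5 of the 6 pairs, with Gpi1, Aldoa, Tpi1, Gapdh and Ldhb as partners, and the other pair was Gpi1 with Eno1. Slc2a1 was in 0 of them. Pairs that share a gene are not independent, and no test was made over them.

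The larger differences were between animals of one group. Control heart 4 was the highest control heart for 10 of the 10 genes, against 27.5% of all tested genes. Control heart 3 was the lowest for 9 of the 10, all but Eno1, against 26.03% of all tested genes. Both held for 9 of the 10 genes, against 12.5% of all tested genes, and for 9, 8 and 7 of them with RLE, upper-quartile and total count scaling. Control heart 4 had the lowest column total and control heart 3 the highest, and the part of depth in this pattern was not tested. The sum of the 8 cardiomyocyte markers was 109304 to 125578 CPM in control hearts and 134015, 105768 and 107315 CPM in transferred hearts 1 to 3. Single markers differed, since in control hearts 3 and 4 Ckm was at 6243 and 9314 CPM and Tnnt2 at 19030 and 17490 CPM. The part of cardiomyocyte content in the pattern was not tested. Among transferred hearts, heart 1 was the highest for 8 of the 10 genes, all but Slc2a1 and Ldha, against 36.5% of all tested genes, and for 5 with total count scaling (18.9% of all tested genes). Transferred heart 1 was also above the mean of the 7 hearts for 10 of the 10 genes, against 50.3% of all tested genes, and for 8 with total count scaling (32.7%). Heart 3 was the lowest transferred heart for 7 of the 10, against 33.0% of all tested genes, and for 6 with upper-quartile and total count scaling.

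The spread of the 10 genes was wide for their level. Their median SD was 12.7% of the mean among control hearts, against 7.05% for the 1736 tested genes with a control mean of at least 100 CPM and 11.1% for all tested genes. The median ratio of highest to lowest heart was 1.39, against 1.27 and 1.45 in the same comparison sets. The median log2 fold change between the groups was -0.03 for the 10 genes and -0.00 for all tested genes, and 4 of the 10 were above 0.

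**Figure D3:**
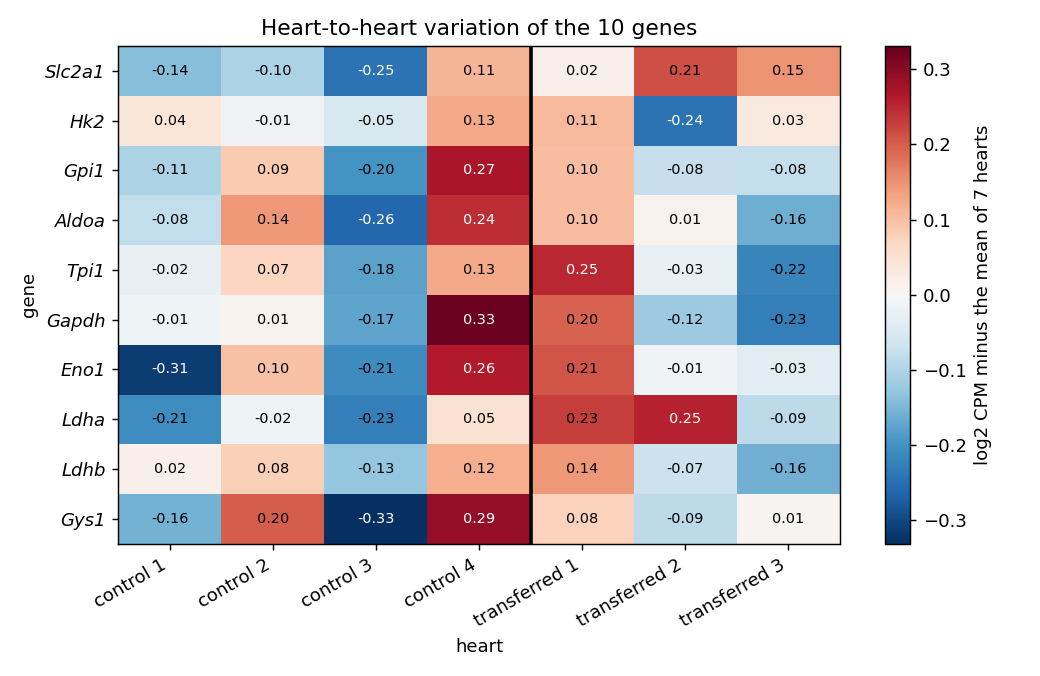
Log2 CPM of each gene (rows) in each heart (columns) minus that gene's mean over the 7 hearts, with red above and blue below the mean and a line between control and transferred hearts. Control heart 4 is above the mean for all 10 genes and control heart 3 below it, and transferred heart 1 is above it for all 10, while transferred hearts 2 and 3 are above it for some genes and below it for others.

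Levels were compared between genes only per kilobase of combined exons. Gapdh had the highest mean over the 7 hearts, 3718 CPM per kilobase, followed by Ldhb at 3441, Aldoa at 2664 and Tpi1 at 1828 CPM per kilobase, and this order was the same in 7 of 7 hearts. Gpi1 at 487 and Ldha at 424 CPM per kilobase came next, with Gpi1 above Ldha in 6 of 7 hearts. Eno1 at 163 CPM per kilobase was below Ldha in 7 of 7 hearts. Hk2 at 114 and Gys1 at 109 CPM per kilobase did not keep an order, with Hk2 above in 4 of 7 hearts. Slc2a1 was the lowest in every heart, at 19.9 CPM per kilobase.

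This order depends on the lengths used. With the principal GENCODE transcripts, Ldha was at 1352 CPM per kilobase and above Gpi1, and Aldoa at 4412 CPM per kilobase was above Ldhb. On both lengths the B subunit transcript was the more abundant, and on combined exons Ldhb exceeded Ldha 8.55-fold to 9.50-fold in control hearts and 6.50-fold to 7.74-fold in transferred hearts.

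**Figure D4:**
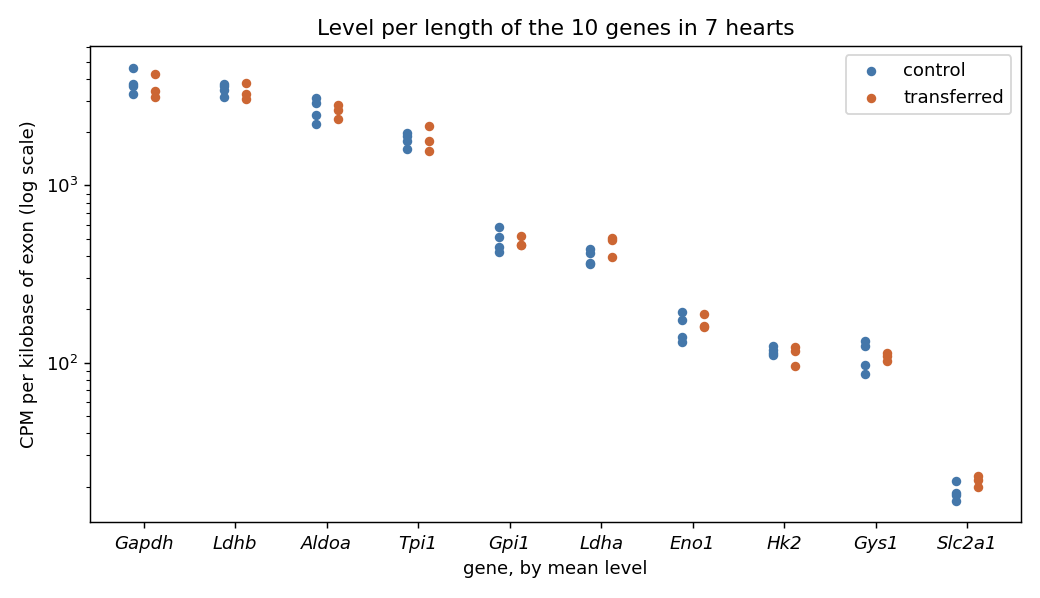
Level of each gene per kilobase of combined exons (CPM per kilobase, log axis) in the 4 control and 3 transferred hearts, ordered by mean. Points of the 2 groups lie on top of each other, from Gapdh at 3718 down to Slc2a1 at 19.9 CPM per kilobase on average.

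By likeness of profile over the 7 hearts, measured as the root mean square difference in centred log2 CPM, the genes nearest to Slc2a1 were Picalm at 0.03, Emp3 at 0.05 and Rps6ka1 at 0.05, against a median of 0.24 over all genes. Picalm, which encodes a clathrin adaptor, was at 347, 381, 334 and 417 CPM in control hearts and at 406, 453 and 429 CPM in transferred hearts. It shared with Slc2a1 the low value in control heart 3 and the highest in transferred heart 2. The genes nearest to Gys1 were Pom121, Ambra1 and Ap2a2, at 0.08, 0.08 and 0.09 against a median of 0.27. These likenesses are descriptions over 7 hearts and carry no test.

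The rest of the glucose pathway was followed through 122 other listed genes, of which 56 were in the analysed table and 49 were tested. None passed the threshold (edgeR quasi-likelihood test, adjusted p of at least 0.110), and 5 had an unadjusted p-value under 0.05 (10.2%, against 12.4% of all tested genes). DESeq2 called 2 of the 49, against 252 of all 7667 tested genes. The groups did not overlap in 4 of the 49 (8.16%, against 11.2%), and the median log2 fold change of the 49 was 0.01. Of the 49, 1 gene, Slc2a6, passed the filter on low counts through the transferred hearts alone. Without it, the counts over 48 genes were 4 with an unadjusted p-value under 0.05, 1 called by DESeq2 and 3 without overlap. These counts stand beside the same values over all tested genes. Of the list of other glycolysis enzymes, 6 of 25 were in the analysed table and 3 could be tested. Gapdhs, Ldhc and the pyruvate kinase gene Pklr were in the table and failed the filter on low counts. Enzymes on chromosomes not analysed here, such as phosphofructokinase and the pyruvate kinase of Pkm, are not described. Of the 3 tested genes, Eno2 and Bpgm had log2 fold changes of 0.17 and -0.11.

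Among 8 tested glucose transporters, 0 passed. Slc2a6, which encodes GLUT6, was at 0.389, 0.258, 0.230 and 0.505 CPM in control hearts, from 8, 6, 6 and 8 counts, and at 1.32, 3.25 and 0.741 CPM in transferred hearts, from 26, 69 and 15 counts. It passed the filter on low counts, which needs 3 hearts, through the transferred hearts, since only 1 control heart reached the level required, so its separation and p are given as a description. The groups did not overlap, and the log2 fold change was 2.38 with a standard error of 0.55 (edgeR adjusted p = 0.110). Without transferred heart 2 it was 1.6 (edgeR adjusted p = 0.377). DESeq2 called it with an adjusted p of 0.0114, and its adjusted p lay between 0.0114 and 0.377 over the alternatives that tested it, while a filter of 1 CPM in 3 hearts removed it. Slc2a3, which encodes the high-affinity transporter GLUT3 of neurons and blood cells, was at 3.84, 4.52, 5.76 and 4.61 CPM in control hearts and at 14.0, 13.6 and 3.56 CPM in transferred hearts. Transferred heart 3 was thus the lowest of all, and without it the log2 fold change was 1.56 (edgeR adjusted p = 0.0110) in place of 1.15 (edgeR adjusted p = 0.292). The heart left out is the one that went against the difference, and leaving it out also raised the count of all genes called. The p-value without it is therefore only a description. Both transporters are known in leukocytes, whose summed markers are given above, and the part of those cells in these values was not tested.

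Of 12 tested glycogen genes 0 passed, and the median log2 fold change was 0.05. Ppp1r3d, which encodes a subunit that brings protein phosphatase to glycogen, was at 42.2, 34.04, 30.3 and 37.6 CPM in control hearts and at 29.8, 29.2 and 29.9 CPM in transferred hearts. The groups did not overlap, by a narrow gap to control heart 3 (log2 fold change -0.28, edgeR adjusted p = 0.371). Phkg1, which encodes a catalytic subunit of phosphorylase kinase, had a log2 fold change of 0.28 with overlapping groups, which was 0.44 without transferred heart 1 and 0.16 without transferred heart 3.

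Of 6 tested genes of pyruvate and lactate handling 0 passed. Pdhx, which encodes the component that anchors dihydrolipoamide dehydrogenase in the pyruvate dehydrogenase complex, was at 472, 504, 468 and 527 CPM in control hearts and at 422, 416 and 376 CPM in transferred hearts. The groups did not overlap (log2 fold change -0.28 with a standard error of 0.08, edgeR adjusted p = 0.178), and DESeq2 called it with an adjusted p of 0.0329. Over all 7667 tested genes DESeq2 called 252 and edgeR 18. Mpc2, a subunit of the mitochondrial pyruvate carrier, was at 952 to 1042 CPM in control hearts and at 827 to 941 CPM in transferred hearts, also without overlap (log2 fold change -0.14, edgeR adjusted p = 0.548; -0.080 without transferred heart 3). Mpc2 was named after its values were seen, as was Pdk4. Pdp1, which encodes the phosphatase that activates pyruvate dehydrogenase, had a log2 fold change of 0.19, and of 0.12 without transferred heart 2.

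Pdk4, which encodes the kinase that shuts off pyruvate dehydrogenase and is induced by fasting, varied most between control hearts of the 6 pyruvate and lactate genes, at 409, 1567, 375 and 1202 CPM. The transferred hearts were at 455, 366 and 477 CPM, near control hearts 1 and 3 and far below control hearts 2 and 4. The log2 fold change was -1.04 with a standard error of 0.57 (edgeR adjusted p = 0.548). Leaving out control heart 2 gave -0.61 (edgeR adjusted p = 0.839). The labels do not give the feeding state of the animals.

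Of 11 tested regulators and of 9 tested genes of the pentose phosphate and side branches 0 passed. Mlxip and Prkab2, which encode a glucose-responsive transcription factor and a subunit of the energy sensor AMPK, had log2 fold changes of -0.23 and -0.36 with overlapping groups. That of Mlxip was -0.13 without transferred heart 2. That of Prkab2 was -0.20 without the 2 letter-prefix hearts and -0.55 without transferred heart 3. Rpia and Rpe, which encode enzymes that interconvert pentose phosphates, were at -0.18 and 0.17 on the same scale. Of 4 tested genes of the low-oxygen response, 0 passed. Kdm3a and Bnip3, which encode a histone demethylase and a mitophagy receptor, had log2 fold changes of 0.25 and 0.25, and Adm and Pdk1 of 0.12 and 0.03. Their summed level was 1348 to 1658 CPM in control hearts and 1361, 1906 and 1499 CPM in transferred hearts 1 to 3, highest in transferred heart 2, where the Ldha share was highest. The sums of transferred hearts 1 and 3 lay inside the control range, while their Ldha shares, 11.5% and 11.4%, lay above all control hearts. The part of low oxygen in the Ldha share was not tested.

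**Figure D5:**
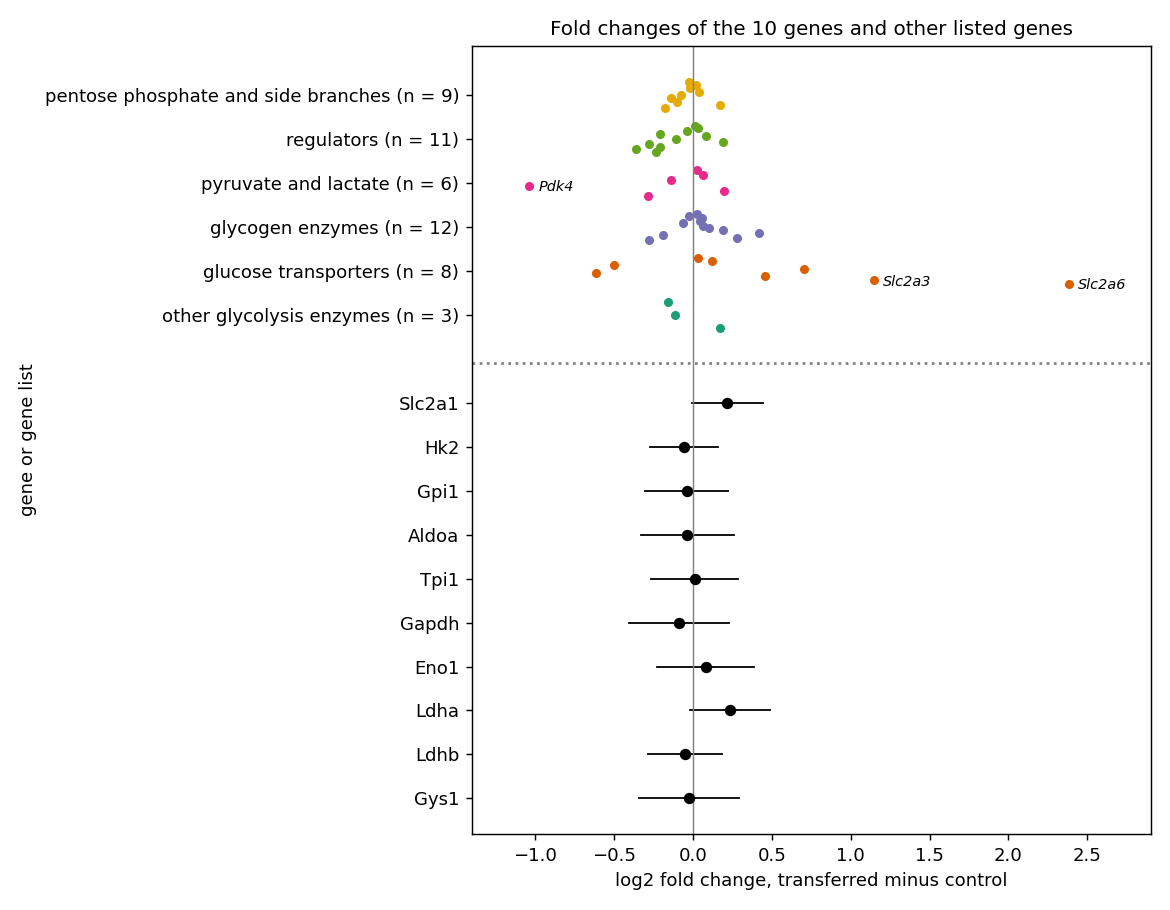
Log2 fold change of transferred over control hearts (horizontal axis) for the 10 genes, with 95% intervals as lines, and for 49 other genes of glucose metabolism grouped by list, shown as points without intervals. The intervals of all 10 genes include 0, and Slc2a6 at 2.38, Slc2a3 at 1.15 and Pdk4 at -1.04 lie outside the range of the rest.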

How the data were processed

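Polyadenylated RNA of 7 hearts was sequenced in pairs of 75 nt reads, about 55 M per sample per the series design text. The submitters' processing notes name bcl2fastq 2.20.0.422, cutadapt 2.5, STAR 2.7.2b, featureCounts 1.6.4, DESeq2 1.22.2 and build GRCm38.p6, without settings. The authors deposited one table of raw estimated counts per gene, of which 4.63% had a fractional part; they were rounded. Its 20343 complete rows were used and 1 unfinished row was dropped; they cover part of the genome, so column totals are not library depth. All 20343 gene identifiers and start positions matched the RefSeq table of that build.

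Counts were filtered with filterByExpr, scaled by TMM and tested over all 7667 genes with the robust quasi-likelihood test of edgeR 4.0.16 in R 4.3.3, with Benjamini-Hochberg adjustment at 0.05. Intervals are at 95% and used the F statistic. Replicates were numbered in accession order. Each heart has its own identifier in the labels, and p-values measure the spread between these 7 hearts. Same-group libraries differed by a chi-square of 18.2 to 81.5 per degree of freedom over 9 pairs. The fit was tested on simulated data.

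Members and lists were chosen with earlier results of these data known. Of each pathway list, the text names genes past the threshold and the 2 with the smallest p, and for likeness the 3 nearest genes; Mpc2, Mlxipl, Pdk4 and the leukocyte markers are named outside this rule. Alternatives were other scalings and filters, DESeq2 1.42.0, limma-voom (limma 3.58.1), no robust estimation, the identifier prefix, unrounded or whole counts, and left-out hearts. Added after seeing the data were, for the Ldha share, pseudogene counts, principal transcript lengths and the log2 ratio.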

Additional observations from a re-analysis of the deposited data

How the results depend on the processing

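No gene of the 10 passed the threshold in any of the 19 alternatives, in which edgeR, DESeq2 or limma-voom adjusted p-values went down to 0.195 for Ldha and 0.299 for Slc2a1; with whole counts only, 5 of the 10 were tested. Ldha and Slc2a1 kept a positive log2 fold change throughout, from 0.16 to 0.34 and from 0.17 to 0.29. Over the 185 fits of all 10 genes the sign changed in 17, and all 17 were fits of the other 8 genes, whose fitted values are near 0. Tpi1 became -0.012 with the identifier form as covariate and -0.12 without the letter-prefix hearts, where Eno1 became -0.079 and Pom121 -0.086. Leaving out single hearts gave ranges that crossed 0 for Tpi1 (-0.12 to 0.12), Eno1 (-0.0025 to 0.19), Pom121 (-0.041 to 0.077), Aldoa (-0.12 to 0.045), Gys1 (-0.12 to 0.079), Bpgm (-0.48 to 0.048), Gpi1 (-0.11 to 0.052), Gapdh (-0.22 to 0.019), Ap2a2 (-0.15 to 0.022), Hk2 (-0.13 to 0.044), Ldhb (-0.14 to 0.016) and Eno2 (-0.051 to 0.46).

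The count of all genes called, 18, became 35 with total count scaling (26 higher, 9 lower; 10 higher and 8 lower before), 81 with all genes of at least 1 count (66 higher, 15 lower), 252 with DESeq2 (192 higher, 60 lower) and 9 with whole counts only (3 higher, 6 lower). It was 0 with limma-voom, with the identifier covariate and without the letter-prefix hearts, with 907, 973 and 1054 genes at an unadjusted p under 0.05, and 0 to 140 with single hearts left out (0 without control heart 1, 2 or 4 or transferred heart 2, 1 without control heart 3, 27 without transferred heart 1 and 140 without transferred heart 3). Of the other pathway genes, 0 became 1 with all genes of at least 1 count (Slc2a6), 2 with DESeq2 (Slc2a6 and Pdhx) and 0 to 3 with single hearts left out, the 3 being Slc2a6, Slc2a3 and Mlxipl without transferred heart 3. Slc2a6 passed the main filter on low counts through the transferred hearts alone, so its calls are given as a description. What causes these shifts was not tested.

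The Ldha share differed by 1.33 to 2.28 percentage points with single hearts left out and by 2.02 without the letter-prefix hearts, where too few groupings remain for a p under 0.05. It differed by 4.38 points as a share of counts, and the log2 ratio of Ldha to Ldhb by 0.28. No paired analysis was possible because replicate numbers were given in accession order and pair no hearts. No control heart stood apart from the other 3 in any of the 30 values checked (Dixon's criterion). Precision is limited by the 7 hearts more than by depth, since each of the 10 genes had at least 909 counts in every heart.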
